A study of Arabidopsis thaliana with 6 samples.

Results

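Calcium sensing and signalling genes were defined here as genes whose symbol in the array's probe-to-gene annotation begins, with or without the prefix AT, with CML, CAM, CPK, CDPK, CIPK, CBL, CNGC, GLR, ACA or CAX followed by a number. The rule found 12 genes, each with 1 probe set, among 8854 genes named by 8950 single-gene probe sets, out of 16129 probe sets in all. They were 6 calmodulin-like sensor genes (CML23, CML30, CML37, CML38, CML41 and CML42) and 6 glutamate receptor-like channel genes (GLR1.2, GLR1.4, GLR2.7, GLR2.8, GLR3.3 and GLR3.5). By current RefSeq symbol the same rule matches 143 genes, 26 of them sensors, 37 channels, 55 protein kinases and 25 under ACA or CAX. These last are the symbols of pumps and exchangers, but ACA is also used for alpha carbonic anhydrases, which were not separated in that count. The 26 sensors are 8 CML, 9 CAM and 9 CBL symbols. Genes that carry such a name only as a synonym are left out, so these counts do not give the size of a family. The kinases and the pumps and exchangers had 0 named probe sets here, so sensors could be set beside channels and not beside kinases.

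Distal leaves of Arabidopsis thaliana, ecotype Columbia (Col-0), were taken 24 h after a primary leaf of the same plants had been infiltrated. Mock plants received the exudate labelled with MgCl2, and treated plants the same exudate with added glycerol-3-phosphate (G3P), a phosphorylated intermediate of glycerolipid metabolism studied as a signal of systemic acquired resistance. Both groups therefore carried the infiltration and the exudate, and no untreated leaves were analysed. The plants of both groups were 3 to 4 weeks old and had been kept at 22 degrees C and 65% humidity with 14 h of light a day. Each group had 3 ATH1 arrays, each from RNA of a separate set of plants. How many plants made up a set is not given in the sources used here.

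In plant cells a stimulus opens calcium-permeable channels in the plasma membrane and internal membranes, and the rise in cytosolic calcium is read by EF-hand proteins such as calmodulin, the calmodulin-like CML proteins and the calcium-dependent kinases. Pumps and exchangers then return calcium to the vacuole, the endoplasmic reticulum and the apoplast. Glutamate receptor-like (GLR) proteins are ligand-gated cation channels, and in Arabidopsis leaves some of them carry the electrical and calcium signals that run from a wounded leaf to distant leaves. Several CML genes are known in Arabidopsis as quickly induced by touch, wounding, pathogens or low oxygen.

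The arrays had median signals of 291 to 338 and 2% trimmed means of 747 to 754. G3P replicate 3 stood apart from the others, with a correlation of 0.842 to 0.913 with each other array across probe sets, against 0.930 to 0.961 among the other 5. Leaf identity was checked on photosynthesis genes, of which 6 of 11 listed had a named probe set, none with a signal under 432. Their summed signal was 99580 to 118954 in mock and 43482 to 100970 in G3P leaves, the lowest value being that of G3P replicate 3. Of the guard cell markers 1 of 5 was measured, the transcription factor gene FMA (FAMA), at 187 to 350.4 in mock and 240.1 to 326 in G3P leaves. Of the listed root, pollen and phloem markers 0 were measured. These RNAs came from whole leaves, so fewer cells of a type and less RNA per cell cannot be told apart.

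For none of the 12 genes did the difference between G3P and mock leaves pass the test against the spread between arrays. On the scale log2(signal + 16), 5 genes had a positive difference (G3P minus mock) and 7 a negative one, and the median was -0.04, against a median of -0.03 over all probe sets. After adjustment over all 16129 probe sets 0 of 12 passed the threshold of 0.05 (limma, Benjamini-Hochberg adjusted p from 0.912 to 0.993), with 0% of all probe sets passing. At an unadjusted p under 0.05 the count was also 0 of 12, against 3.08% of all probe sets (limma), and 0 of 12 had groups that did not overlap, against 8.64%. For 4 of the 12 (CML30, CML42, GLR3.3 and GLR3.5) the 95% interval on the log2(signal + 16) scale excluded a difference of 1 unit either way. It did so for 52.6% of all probe sets. For the other 8 genes a difference of 1 unit remained within the interval. The pseudocount of 16 shrinks differences of dim genes, so for GLR3.5 (signals 53.9 to 125) a 2-fold difference in the signal itself is not excluded thereby.

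CML38 encodes a sensor known for its strong induction by wounding and low oxygen. Its signals were 831, 5879.9 and 831 on mock replicates 1, 2 and 3, and 1359, 252 and 397 on G3P replicates 1, 2 and 3. Mock replicate 2 stood 4.33-fold above the next array, while the other mock arrays lay inside the range of the G3P arrays. Mean values of log2(signal + 16) were 10.66 ± 1.62 for mock and 9.06 ± 1.22 for G3P (SD, n = 3 each). The difference of -1.60 ± 0.85 (SE) had a 95% interval of -3.57 to 0.37 and did not pass (limma, adjusted p = 0.912). Without mock replicate 2 it was -0.67.

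CML37, a relative of CML38 that is also induced by wounding and acts in responses to insect feeding, shared only its highest and lowest arrays with CML38. The arrays between ran in another order, with CML38 higher on G3P replicate 1 (1359) than on G3P replicate 3 (397) and CML37 the reverse. The signals of CML37 were 54.1, 313 and 67.6 in mock and 39.6, 2.70 and 82.6 in G3P leaves. The highest value was again on mock replicate 2 and the lowest on G3P replicate 2, where the signal was close to 0 and the pseudocount of 16 sets most of the log2 value. The means were 6.96 ± 1.22 and 5.55 ± 1.22 (SD, n = 3 each), and the difference was -1.41 ± 0.76 (SE; limma, adjusted p = 0.912). It was -0.71 without mock replicate 2 and -0.75 without G3P replicate 2, and it was -2.19 with a pseudocount of 1 and -0.84 with 64. Among the 12 genes 3 (CML37, CML38 and GLR1.2) were highest on mock replicate 2 and lowest on G3P replicate 2, as were 1.92% of all probe sets. This pattern was read from CML38 and CML37 themselves, so their count cannot be weighed against that share.

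CML41 encodes a sensor located at plasmodesmata that is known to promote callose deposition after perception of bacterial flagellin. Its signals were 214, 331 and 427 in mock and 316, 130.3 and 4479.9 in G3P leaves. A single array, G3P replicate 3, stood 10.5-fold above the next, and the other G3P arrays lay within or below the mock range. The means were 8.36 ± 0.48 and 9.23 ± 2.58 (SD, n = 3 each), with a difference of 0.88 ± 1.10 (SE; limma, adjusted p = 0.917). Without G3P replicate 3 the difference was -0.57, and with array quality weights it was -0.02. On the same array 4 of the 6 measured photosynthesis genes had their lowest signal, and 3.78% of all probe sets lay more than 1 log2 unit above the other 5 arrays. Their part in the CML41 value was not tested.

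CML23, a close relative of CML24 with a known role in flowering time and nitric oxide levels, varied widely within both groups. Its signals were 49.0, 239.9 and 36.5 in mock and 484, 115 and 53.4 in G3P leaves. The highest array was G3P replicate 1 and the second highest mock replicate 2, so the groups overlapped over most of their range. The difference was 0.79 ± 0.82 (SE; limma, adjusted p = 0.913), with -0.0027 without G3P replicate 1 and 1.50 without mock replicate 2.

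The remaining sensors were steady. CML42, which acts in trichome branching and in defence against insects, had signals of 895, 855 and 686 in mock and 821, 555 and 785 in G3P leaves. Its highest signal was 1.61-fold its lowest, and the difference was -0.18 ± 0.24 (SE) with a 95% interval of -0.73 to 0.36. CML30, whose protein has been located to mitochondria, had 271, 349 and 341 in mock and 536, 271 and 380.4 in G3P leaves. Only G3P replicates 1 and 3 were above the mock range, and the difference was 0.25 ± 0.29 (SE), or 0.01 without G3P replicate 1. Neither gene passed (limma, adjusted p = 0.919 for CML42 and 0.913 for CML30).

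**Figure D1:**
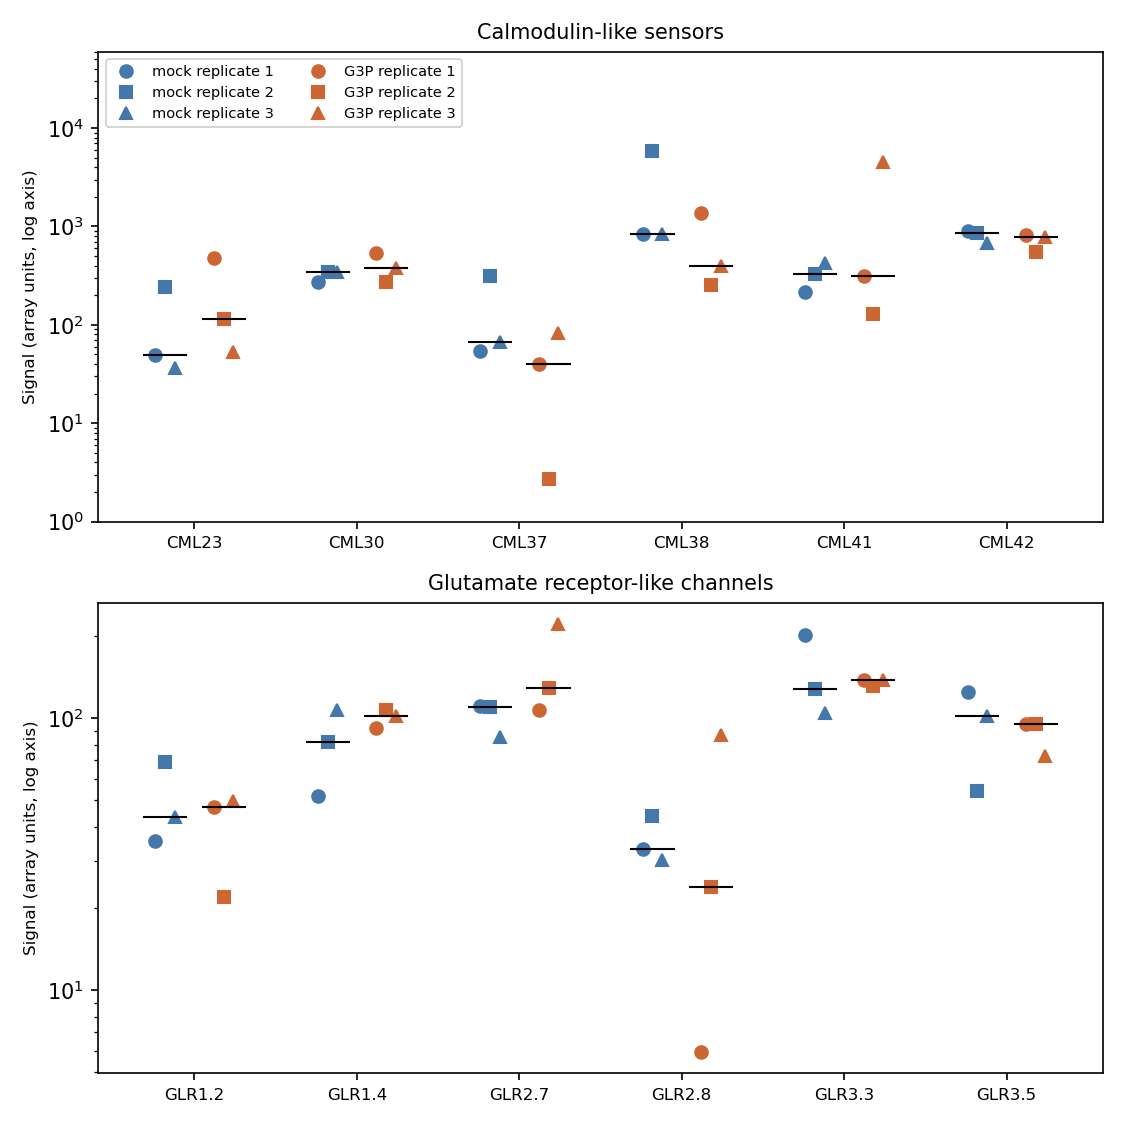
Signals of the 6 calmodulin-like sensor genes (top) and the 6 glutamate receptor-like channel genes (bottom) on each array, on log axes in array units, with blue symbols for mock, orange for G3P, the symbol's shape for the replicate number and a black bar at each group's median. CML38 and CML37 are highest on mock replicate 2, CML41 stands at 4479.9 on G3P replicate 3, and the groups overlap for every gene shown.

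Over the 6 arrays the log2(signal + 16) values of each channel gene spanned 0.86 to 1.23, apart from GLR2.8 (2.23). The spans of CML42 (0.67) and CML30 (0.94) were similar, and those of CML23, CML37, CML38 and CML41 ran from 3.25 to 4.94. GLR3.3, which together with other clade 3 receptors carries wound-evoked electrical and calcium signals from leaf to leaf, had signals of 203, 128 and 104.5 in mock and 138, 131 and 139 in G3P leaves. The G3P arrays were nearly equal and lay inside the mock range, with log2 means of 7.25 ± 0.04 for G3P and 7.29 ± 0.44 for mock (SD, n = 3 each). The difference was -0.04 ± 0.29 (SE) with a 95% interval of -0.72 to 0.63, and it was 0.20 without mock replicate 1. GLR3.3 was the only gene with a named probe set among 4 listed for leaf-to-leaf wound signals (GLR3.1, GLR3.2, GLR3.3 and GLR3.6).

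GLR3.5, a clade 3 channel whose splice forms reach mitochondria or chloroplasts, had signals of 125, 53.9 and 102 in mock and 94.9, 95.3 and 72.6 in G3P leaves. All G3P arrays again lay inside the mock range. The difference was -0.03 ± 0.34 (SE; limma, adjusted p = 0.993). Its sign turned without mock replicate 1 (0.18), mock replicate 3 (0.05) or G3P replicate 3 (0.08). The differences of GLR3.3 and GLR3.5 were also slightly above 0 when the arrays were put on a common median or quantile-normalized.

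GLR2.7 and GLR2.8 belong to the clade 2 receptors, some of which contribute to calcium entry after perception of microbial patterns, and they are adjacent genes in the RefSeq annotation. GLR2.7 had signals of 111, 109.8 and 85.6 in mock and 107, 129 and 222 in G3P leaves. G3P replicates 2 and 3 were above all mock arrays and G3P replicate 1 was not. Its difference of 0.46 ± 0.32 (SE), 95% interval -0.28 to 1.199, had the smallest unadjusted p among the channels (0.187) and did not pass (limma, adjusted p = 0.912). After quantile normalization or centring on array medians the GLR2.7 groups no longer overlapped, 1 of the 12 genes against 8.84% and 8.72% of all probe sets. Without G3P replicate 3 the difference was 0.18.

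GLR2.8 had signals of 33.0, 43.9 and 30.1 in mock and 5.96, 24.0 and 86.7 in G3P leaves. The mock arrays lay between the G3P arrays, which held both the highest and the lowest value. Its difference was -0.20 ± 0.57 (SE; limma, adjusted p = 0.962), 0.32 without G3P replicate 1 and -0.79 without G3P replicate 3. Both clade 2 genes had their highest signal on G3P replicate 3, as did 24.5% of all probe sets.

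The clade 1 genes were dim. GLR1.4, a methionine-gated cation channel, had signals of 52.0, 81.5 and 108 in mock and 92.3, 107 and 102 in G3P leaves. The groups overlapped through mock replicate 3, and the difference was 0.31 ± 0.31 (SE; limma, adjusted p = 0.912), or 0.08 without mock replicate 1. GLR1.2, known for its part in calcium influx of pollen tubes, had 35.5, 69.0 and 43.2 in mock and 47.2, 21.9 and 49.5 in G3P leaves. Its difference was -0.24 ± 0.39 (SE; limma, adjusted p = 0.935) and 0.01 without G3P replicate 2. GLR1.2 was the only gene measured of 10 that had been listed for roles in pollen, and whether its signal exceeded background was not tested, since detection calls were not used here.

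On the scale log2(signal + 16), sensors and channels differed in how much their replicate arrays scattered. The pooled within-group SD of log2(signal + 16) was 1.22 for CML37, 1.35 for CML23, 1.43 for CML38 and 1.86 for CML41. These values were higher than those of 97.4% to 99.6% of all probe sets. CML42 (0.26) and CML30 (0.36) lay below the median of all probe sets, 0.37. The channels had SDs from 0.31 (GLR1.4 and GLR3.3) to 0.81 (GLR2.8), with a median of 0.38, against a median of 1.29 for the sensors. These are descriptions over 6 genes in each class, and no test was made of the difference between the classes. The channels were also dimmer: without the dimmest 50% of probe sets 4 sensors and 0 channels remained. The pseudocount of 16 shrinks the scatter of dim probe sets most. In signal, the highest array was 14.6-fold the lowest for GLR2.8 and 1.94-fold to 3.14-fold for the other channels. That ratio was 13.3 for CML23 and 116 for CML37. The lowest signals were 2.70 for CML37 (G3P replicate 2) and 5.96 for GLR2.8 (G3P replicate 1), both close to 0. The ratios of these genes thus rest on 1 dim array each. The part of brightness in the contrast was not tested.

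**Figure D2:**
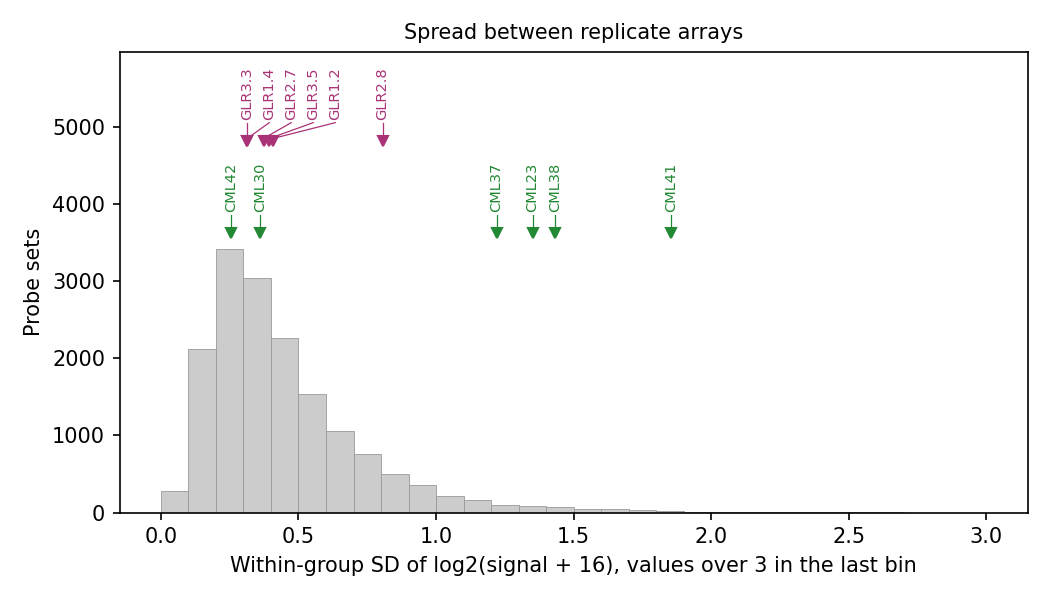
Histogram of the pooled within-group SD of log2(signal + 16) over 16129 probe sets, with the values of the 6 sensor genes (green) and the 6 channel genes (purple) marked above it. CML37, CML23, CML38 and CML41 lie in the upper tail at 1.22 to 1.86, while CML42, CML30 and 5 of the channels lie near the bulk, whose median is 0.37.

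The scatter of the sensors was also described by array. Each gene's log2 values were set against its own mean over 6 arrays, and the median over the 6 sensors was taken on each array. It was -0.24, 0.60 and -0.08 on mock replicates 1, 2 and 3 and 0.34, -1.02 and 0.09 on G3P replicates 1, 2 and 3. The lowest array thus belonged to the G3P group and the highest to the mock group, with the other 4 arrays between them and the groups mixed. The same medians for the channels stayed between -0.10 and 0.17, and for all probe sets between -0.05 and 0.07. Of the 6 sensors 4 (CML37, CML38, CML41 and CML42) had their lowest signal on G3P replicate 2, as did 10.2% of all probe sets. That array was picked out by the medians of the same 6 sensors, so their count cannot be weighed against that share. On G3P replicate 2, 42 probe sets in all lay over 1 log2 unit from every other array, the fewest of the 6 arrays, and leaving it out raised the probe sets at an unadjusted p under 0.05 from 496 to 1196 (limma). The part of that array in the sensor medians was not tested.

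A value over 1 log2 unit beyond all the other arrays occurred in 3 of the 12 genes, all sensors, against 10.8% of all probe sets. CML38 exceeded the other arrays by 2.10 and CML37 by 1.74 on mock replicate 2, where 0.744% of all probe sets had an excess of over 1. CML37 had a gap of -1.57 to the next array on G3P replicate 2, where 0.211% of probe sets lay over 1 log2 unit below the other arrays. CML41 exceeded the other arrays by 3.34 on G3P replicate 3. The median difference of the sensors was 0.03 and that of the channels -0.04. The first became -0.41 without G3P replicate 3, and the second 0.13 without mock replicate 1 or G3P replicate 1.

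**Figure D3:**
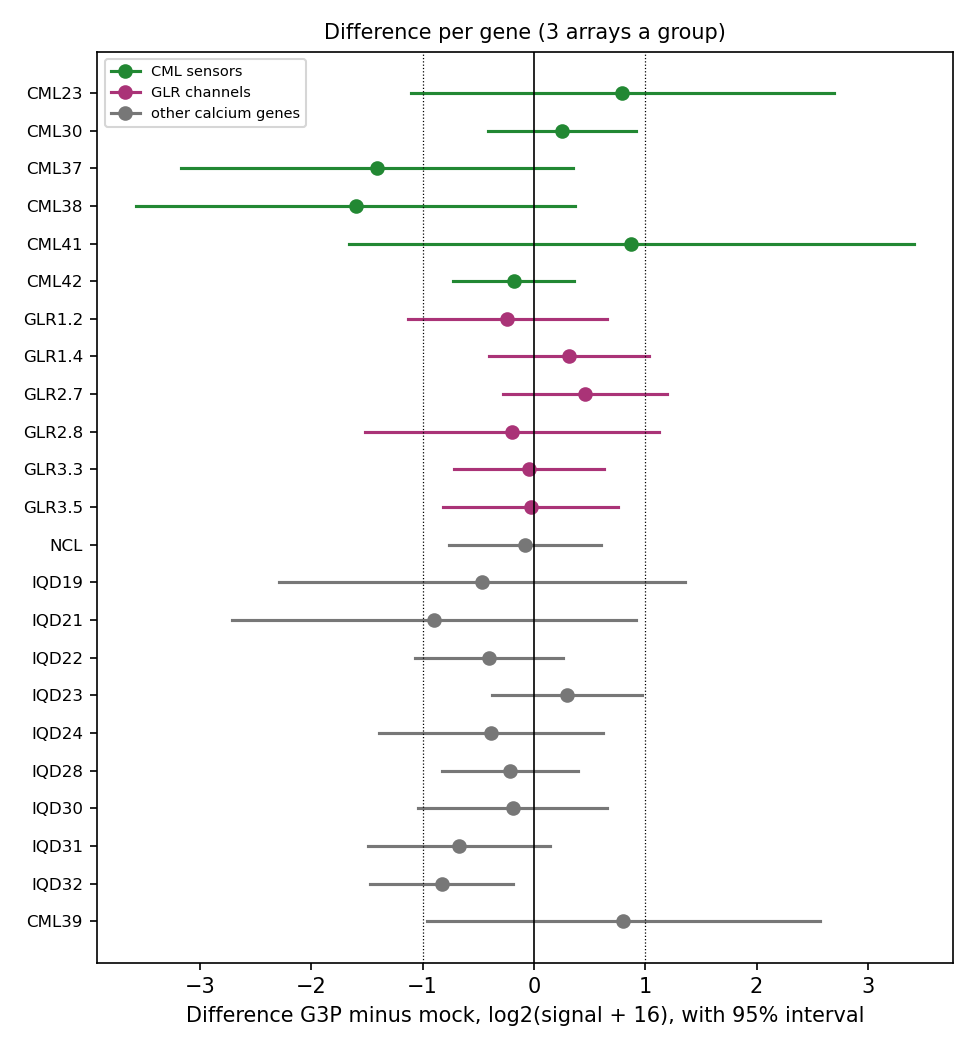
Difference between G3P and mock leaves on the scale log2(signal + 16) for each gene (points) with its 95% interval from limma (lines), for sensors (green), channels (purple) and 11 other calcium-related genes (grey). Dotted lines mark a difference of 1 unit on that scale. The intervals of all 12 sensors and channels include 0, and that of IQD32 (-1.47 to -0.18, without adjustment for multiple tests) does not.

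Other genes of calcium signalling were looked up from a list of symbols, synonyms included, and 11 had a named probe set. They were 9 IQD genes, which encode calmodulin-binding proteins many of which associate with microtubules, the exchanger gene NCL, and AT1G76640, listed by RefSeq as CML39. There were 2 positive and 9 negative differences, and their median was -0.38, against -0.03 over all probe sets, and 0 passed (limma, adjusted p from 0.912 to 0.972). At an unadjusted p under 0.05 there was 1, IQD32, against 3.08% of all probe sets, and IQD32 was also the only one whose groups did not overlap, against 8.64%.

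CML39 is the gene next to CML38 in the RefSeq annotation and, like it, is listed among the touch and wounding genes. RefSeq gives CML39 as a synonym of CML37 too, so the probe set of AT1G76640 is meant here. Its signals were 3.12, 3.36 and 3.12 in mock and 2.41, 1.60 and 99.9 in G3P leaves. It was thus near 0 on 5 arrays, including mock replicate 2 where CML38 was highest, and was higher only on G3P replicate 3, where CML38 stood at 397. The log2 difference was 0.80 ± 0.76 (SE; limma, adjusted p = 0.912) and -0.09 without that array. Of 5 listed touch and wounding genes 3 were measured (CML37, CML38 and CML39), with 1 positive and 2 negative differences, a median of -1.41 and 0 past the threshold. With 3 genes this median is the value of 1 gene, CML37 here and CML38 without mock replicate 2. That median was -0.67 without mock replicate 2, -0.75 without G3P replicate 2, -0.48 without both mock replicate 2 and G3P replicate 3, -0.84 with a pseudocount of 64 and -2.36 with array quality weights. Of 26 listed immunity genes 2 were measured, CML41 and CML42, with 1 difference in each direction, and of 12 genes for ion transport by CBL-CIPK pairs 0 were.

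Among the IQD genes 8 of 9 differences were negative (53.5% of all probe sets were), with a median of -0.40. IQD32 had signals of 573, 385 and 331 in mock and 222, 281 and 192 in G3P leaves, with every G3P array below every mock array. Its difference was -0.83 ± 0.28 (SE; limma, unadjusted p = 0.0181, adjusted p = 0.912), from -0.99 without mock replicate 3 to -0.61 without mock replicate 1. The unadjusted p was 0.0665 without mock replicate 1 and 0.0692 without both mock replicate 2 and G3P replicate 3 (limma). IQD31 had 778, 629 and 676 in mock and 348, 761 and 293 in G3P leaves, and its groups overlapped through G3P replicate 2. IQD21 had 864, 642 and 307 in mock and 530.2, 647 and 63.3 in G3P leaves, the last with a gap of -2.02 log2 units to the next array. Of the 9 IQD genes 6 were lowest on G3P replicate 3, as were 28.0% of all probe sets. Without that array 5 of 9 differences were negative, with a median of -0.27. The median was -0.18 without mock replicate 1, -0.87 without G3P replicate 2 and -0.16 with array quality weights, where 6 of 9 were negative. NCL, an exchanger that moves sodium and calcium, had 6107, 9439 and 8546 in mock and 9658, 8525 and 5033 in G3P leaves, with a difference of -0.08 ± 0.30 (SE).

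**Figure D4:**
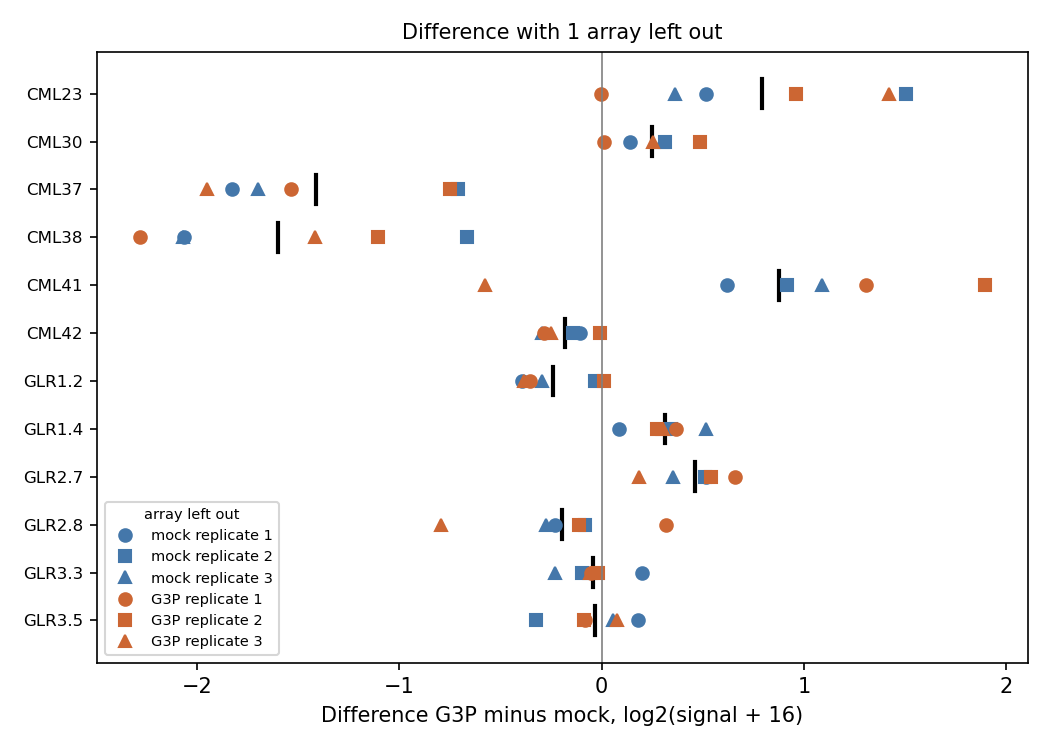
Difference between G3P and mock leaves on the scale log2(signal + 16) for each of the 12 genes with all 6 arrays (black bars) and with 1 array left out (symbols, coloured by the group and shaped by the replicate number of the array left out). CML37 and CML38 stay below 0, at -0.71 and -0.67 without mock replicate 2, while CML41 moves from 0.88 to -0.57 without G3P replicate 3.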

How the data were processed

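The deposited table gives a linear signal intensity for each probe set on each array, made by the authors with Affymetrix Expression Console 1.0, per the submitters' processing notes. The summarization method was not given in the sources used here, nor were the scaling, the genome build and the choice of listed probe sets. Per the labels' protocols RNA was extracted with Trizol and labelled with biotin. Gene names came from the platform annotation (8950 probe sets with 1 gene, 339 with several, 6840 without an entry), and 8911 matched RefSeq (assembly TAIR10.1), used for symbols and gene order. Groups came from the labels. Values were used as deposited, since array medians of log2(signal + 16) lay within 0.206. The comparison used limma 3.58.1 in R 4.3.3 (lmFit, eBayes with a variance trend, no covariates), with adjustment over 16129 probe sets and a threshold of 0.05. It was run on simulated data only with changes larger than any difference it gave for the 12 genes. Its power for smaller changes was not tested. The Wilcoxon rank-sum test of the study's design text, whose exact two-sided p cannot go below 0.1 with 3 against 3, was an alternative. The pseudocount of 16 shrinks most differences of dim probe sets. The rule for named genes took members with non-overlapping groups and, per family, the brightest and the 2 with the smallest p; with only 12 members, per-array values are given for all. From the pathway list, IQD32, IQD31, IQD21, NCL and CML39 were chosen for per-array values after those were seen. The members and lists were chosen with earlier results of these data known. The number of arrays limits the precision.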

Additional observations from a re-analysis of the deposited data

How the results depend on the processing

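The count of calcium genes past the adjusted threshold was 0 of 12, and that of the other calcium-related genes 0 of 11, in every limma fit of the 6 arrays, when any 1 array was dropped, and without both mock replicate 2 and G3P replicate 3, a setting chosen after seeing the data. Of all probe sets 0 passed in each of these fits too, so the counts tell nothing particular about the calcium genes. The exact rank-sum test also gave 0 of the 12 genes but could give no call. At an unadjusted p under 0.05 (limma), CML37 and CML38 were counted with array quality weights (4.44% of all probe sets), CML38 without G3P replicate 1 (3.62%), CML37 without G3P replicate 3 (2.71%) and CML23 with both arrays left out (2.08%). The replicate block gave 0 past the threshold (limma, smallest adjusted p = 0.880 among the 12). In this balanced design a block by replicate number cannot change a difference, so no sign could turn. Deviations of same-numbered arrays correlated at 0.0061, -0.102 and 0.314, against -0.37 to 0.45 for mock and G3P arrays of unlike number. The numbers were therefore not taken to pair the plants. Probe sets that passed at an unadjusted p numbered 496, 716 with array weights, and 233 to 1196 with 1 array left out.

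The count of genes whose groups did not overlap, 0 of 12, was 1 (GLR2.7) after quantile normalization (8.84% of all probe sets) or centring on array medians (8.72%), 1 to 2 with 1 array left out (14.2% to 24.9%) and 4 with both arrays left out (27.5%); fewer arrays overlap less by construction. The median difference of the channels, -0.04, was 0.082 after quantile normalization, 0.21 without the dimmest 25% of probe sets, where 2 of 6 channels remained, and -0.14 with both arrays left out; it ran from -0.087 to 0.13 with 1 array left out, and that of the sensors from -0.41 to 0.24. Without the dimmest 50% the channels had 0 genes and no value.

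Signs turned as follows, and the cause was not tested. GLR3.3 and GLR3.5 had 0.059 and 0.11 after quantile normalization, 0.0008 and 0.012 after centring, and 0.0026 and 0.27 with array weights. With array weights CML41 had -0.024, IQD19 0.065 and IQD30 0.19. With both arrays left out CML41 had -0.53, NCL 0.33, IQD19 0.21, IQD21 0.18 and CML39 -0.088. Leaving out 1 array turned the sign of 6 of the 12 genes, with ranges of -0.0027 to 1.50 for CML23, -0.57 to 1.90 for CML41, -0.39 to 0.013 for GLR1.2, -0.79 to 0.32 for GLR2.8, -0.23 to 0.20 for GLR3.3 and -0.32 to 0.18 for GLR3.5. Of the other 11 it turned 5, with -0.27 to 0.20 for NCL, -1.01 to 0.29 for IQD19, -1.46 to 0.074 for IQD21, -0.46 to 0.17 for IQD30 and -0.094 to 1.27 for CML39. With pseudocounts of 1 and 64 no sign turned, and the difference moved by over 1.5 times under 1 or both for CML37 (-2.19 and -0.84), GLR2.8 (-0.55 and -0.03), GLR1.2 (-0.34 and -0.13), GLR1.4 (0.38 and 0.21), IQD19 (-0.94 and -0.24) and CML39 (1.196 and 0.41). All 12 genes have 1 probe set each, so other rules for choosing it changed no difference.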
